A study of Mus musculus with 18 samples.

Results

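The clustered histone genes are the rows of the deposited gene count table whose symbol begins with Hist1h, Hist2h, Hist3h or Hist4h and that had 10 or more counts in at least 3 of the 18 libraries. This rule took 54 of 68 rows with such a symbol, out of 23365 rows in all: 6 of the linker histone class H1, 11 of H2A, 16 of H2B, 10 of H3 and 11 of H4. The symbols place 44 of them in the Hist1 cluster, 6 in Hist2, 3 in Hist3 and 1 in Hist4, and 51 of the 54 also passed the expression filter and were tested with 13405 genes. The 14 rows under the rule included 5 with no count in any library.

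The libraries are RNA-seq of erythroblasts sorted from mouse spleen as positive for CD71, the transferrin receptor, and for TER119, a surface marker of maturing red cells. The 5 genotypes combine alleles of Klf1, the gene of an erythroid zinc finger transcription factor. WT/WT (3 libraries) carries 2 wild-type alleles, WT/D45 (3) a single D45 allele, D45/D45 (3) 2 D45 alleles, WT/KO (5) a single knockout allele and D45/KO (4) the D45 allele over the knockout. D45 stands for MommeD45, a missense allele that the series title places in linker-2 of the protein, and the series design describes haemolytic anaemia, an enlarged spleen and expanded erythroid progenitors in compound heterozygotes, here D45/KO. The part of Klf1 that the KO allele lacks and the strain, age and sex of the mice were not given in the sources used here. According to the series design, replicates are biological.

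Histones are the proteins that package DNA: an octamer of H2A, H2B, H3 and H4 forms the nucleosome core and H1 binds the linker DNA between cores. Most of their genes stand in clusters, have no introns and are transcribed in S phase with the factor NPAT, when new DNA needs new nucleosomes. Their mRNAs mostly end in a conserved stem-loop bound by the protein SLBP in place of a poly(A) tail, and some of these genes also make polyadenylated mRNAs in cells that leave the cell cycle and differentiate. Erythroblasts divide quickly, then condense and expel the nucleus. Libraries that select for poly(A) tails hold little of the stem-loop form. The labels name a Swift Rapid RNA kit and total RNA, while poly(A) selection was not given in those or other sources used here.

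The stem-loop was searched for in the transcripts of the GENCODE M21 annotation (mouse build GRCm38) as 6 stem bases, 4 loop bases and 6 paired bases. The pattern was that of histone genes. The stem had to open with GG, go on with C or T only and close with T, and the loop had to open with TT. Those letters were thus set by the search, and only the other bases could differ. All 68 rows matched a GENCODE gene by symbol and 43 had a stem-loop, against 58 of 58797 protein-coding transcripts (0.0986%) with such a match anywhere. The 58 were counted with transcripts of these same rows included, and the share is that of this pattern, not of hairpins in general. The 43 fell into 6 sequences of 16 bases, and the stem divided them by class. All 32 stem-loops of H1, H2A, H2B and H3 rows began with the stem GGCTCT, and all 11 of H4 rows began with GGCCCT (9) or GGTCCT (2). One example of each of the 6 sequences is shown with 5 flanking bases on each side, 5′ to 3′, with the stem-loop in capitals, since the tail decides which kind of library can hold the mRNA.
Hist1h2ag: acaaaGGCTCTTTTCAGAGCCaccta
Hist1h3c: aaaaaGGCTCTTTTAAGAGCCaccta
Hist2h2ac: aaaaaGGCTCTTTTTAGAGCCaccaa
Hist4h4: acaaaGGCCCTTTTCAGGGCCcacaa
Hist1h4i: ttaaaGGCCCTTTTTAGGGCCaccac
Hist1h4j: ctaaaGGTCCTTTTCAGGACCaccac
The first of these stood in 25 rows, among them Hist1h1c and Hist3h2a, that of Hist4h4 in 7, that of Hist1h3c in 6, those of Hist1h4i and Hist1h4j in 2 each and that of Hist2h2ac in 1. Each lies in the 3′ UTR, for example 36 bases past the stop codon in Hist1h2ag and 54 in Hist4h4. What differed far more was the annotated length of transcript beyond the stem-loop, which was 23 bases in Hist1h2ag, 330 in Hist1h4i and 2445 in Hist4h4.

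Promoters also differed by class. RefSeq (GRCm38.p6) gave a promoter for 61 of the 68 rows, and 3 motifs were searched for on both strands in the 250 bases before the start. CCAAT, the letters bound by the factor NF-Y, was in all 6 H1, all 17 H2A and all 16 H2B promoters and in 8 of 10 of H3, but in 3 of 12 of H4, against 33.8% of all 32851 promoters. The octamer ATTTGCAT, the letters bound by POU factors such as OCT1, was in 7 of 17 H2A and 6 of 16 H2B promoters and in 0 of the 28 of H1, H3 and H4, against 1.6% of all. TATAAA was in 40.0% (H3) to 66.7% (H1) of promoters of a class, against 12.4% of all. These promoters are not all separate. Some H2A and H2B genes on opposite strands share promoter bases, for example Hist1h2ak and Hist1h2bn, so the same letters can count for both classes. The stretches before Hist1h2bq and Hist1h2br are identical. A match is a description of the letters and shows no binding. The last 120 bases before the start are shown for the H2A genes Hist1h2ag, Hist1h2ak and Hist1h2ah, whose levels are set out below, for the H2A gene Hist3h2a and for the H4 gene Hist1h4i, with the 3 motifs in capitals on either strand.
Hist1h2ag (chr13:22042950-22043069, - strand): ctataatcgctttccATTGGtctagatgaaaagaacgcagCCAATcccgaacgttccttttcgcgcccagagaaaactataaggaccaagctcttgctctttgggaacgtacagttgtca
Hist1h2ak (chr13:21753913-21754032, - strand): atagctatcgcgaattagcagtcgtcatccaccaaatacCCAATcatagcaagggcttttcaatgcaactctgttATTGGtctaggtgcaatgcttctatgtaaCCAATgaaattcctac
Hist1h2ah (chr13:22035644-22035763, - strand): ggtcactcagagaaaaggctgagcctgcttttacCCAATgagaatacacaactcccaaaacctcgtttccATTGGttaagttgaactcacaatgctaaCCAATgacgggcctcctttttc
Hist3h2a (chr11:58954565-58954684, + strand): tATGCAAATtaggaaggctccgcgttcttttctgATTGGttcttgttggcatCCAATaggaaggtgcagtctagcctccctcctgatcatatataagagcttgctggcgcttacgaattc
Hist1h4i (chr13:22041363-22041482, - strand): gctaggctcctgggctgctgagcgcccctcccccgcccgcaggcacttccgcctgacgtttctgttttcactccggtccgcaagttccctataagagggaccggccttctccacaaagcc
The promoters of Hist1h2ag, Hist1h2ak, Hist1h2ah and Hist3h2a each hold CCAAT in this stretch, and that of Hist3h2a also the octamer. The stretch of Hist1h4i holds none of the 3 motifs. Within the full 250 bases the octamer is also found in Hist1h2ah and TATAAA in Hist1h4i.

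Library quality bears on every value that follows. Total counts were 9.36 M to 56.3 M, in units of 1000000, and the erythroid markers were present in every library, with a mean of 10.1 to 13.1 on the log2 CPM scale, where CPM is counts per 1000000 with TMM-adjusted library sizes. In 9 libraries 13 B cell markers were also at a mean log2 CPM of 3.59 to 7.09, against -2.92 to -1.33 in the other 9. The high ones were 1 each of WT/WT, WT/D45 and D45/D45 (replicate 1), 3 of WT/KO (replicates 1 to 3) and 3 of D45/KO (replicates 1 to 3). Every library whose mouse number in the labels is under 200, 7 in all, is among them. These 9 had 22.0 to 219 CPM of Cd79a, a B cell receptor gene, and the rest 0 to 2.22 CPM. In such bulk RNA fewer cells of a type and less RNA per cell cannot be told apart. The TMM factors ran from 0.366 to 1.93, so that levels below are also given without TMM where that matters.

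Few clustered histone genes carried most of the signal. The 54 genes took 2481 to 26380 counts in a library, which is 0.0258% to 0.0565% of all counts, and between 26 (WT/WT replicate 2) and 54 of them had at least 1 count. The 7 genes with the most counts (Hist1h1c, Hist1h2bc, Hist2h2be, Hist1h2ag, Hist3h2a, Hist3h2ba and Hist1h4i) made up 83.9% of the CPM of all 54, with a range of 40.2% (WT/KO replicate 3) to 88% over libraries. Levels of different genes were compared per kilobase of coding sequence, as the mean over the 18 libraries. On that scale 7 of the 53 genes with a coding length were at 50 CPM per kilobase or more, 4 between 10 and 50, 35 between 1 and 10 and 7 under 1.

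**Figure D1:**
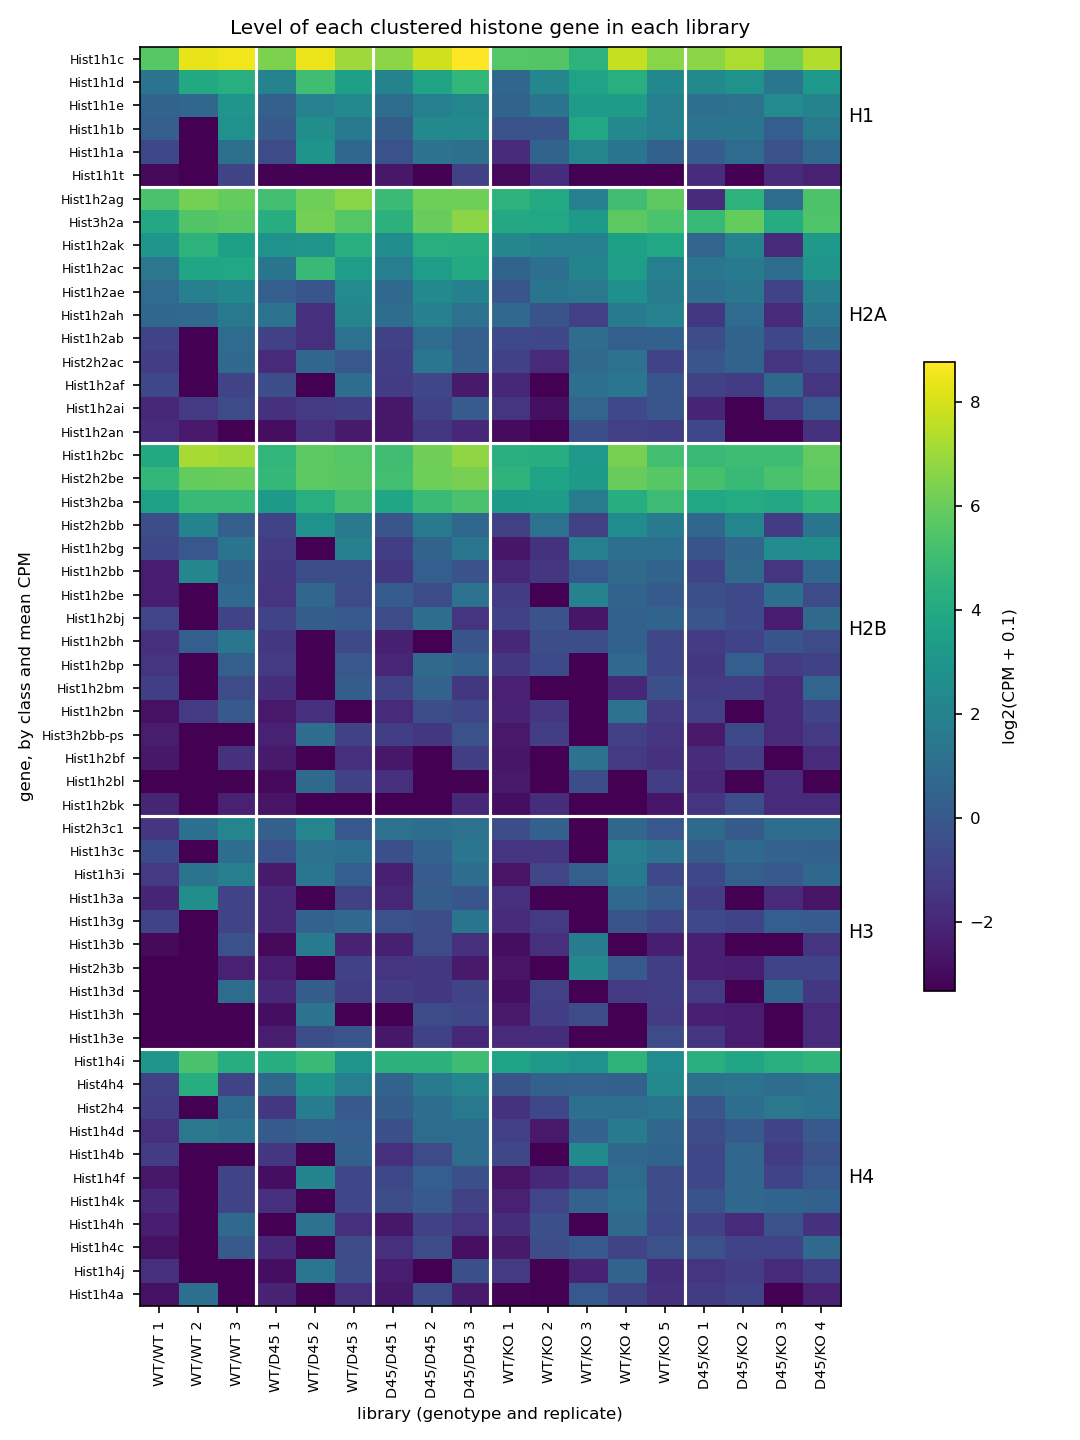
Levels of the 54 clustered histone genes (rows, by class and mean CPM) in the 18 libraries (columns, by genotype), as log2(CPM + 0.1) with TMM-adjusted library sizes. A few rows of H1, H2A, H2B and H4 are bright across libraries, no row of H3 is, and Hist1h2ag is dark in D45/KO replicates 1 and 3.

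Among linker histones, Hist1h1c was at 262.9 CPM per coding kilobase and the next, Hist1h1d, at 16.4, so that 89.2% of the H1 counts, as mean CPM, came from Hist1h1c. The lowest was Hist1h1t, the H1 gene of the testis, at 0.148. In H2A, Hist1h2ag (105 CPM per coding kilobase) and Hist3h2a (103) lay close together, and the median of the 11 genes was 5.15. In H2B the leaders were Hist1h2bc at 139 and Hist2h2be at 114, with a class median of 1.93. H4 had a single leader, Hist1h4i at 59.5 CPM per coding kilobase, which gave 64.5% of the class total, followed by Hist4h4 at 10.5. H3 had no such gene: the highest, Hist1h3c, was at 3.23 and Hist2h3c1 at 3.12. Many members share sequence, and counting can leave out or split reads that match several copies. In GENCODE models 100% of the 50-base windows of Hist2h3c1 and Hist2h3b, 92.1% of those of Hist1h2ah, 78.9% of Hist1h2ag and 57.0% of Hist1h2ak also occur in another gene, against 8.5% in Hist1h1c and 0 in Hist2h2be. Levels of genes with many shared windows are uncertain, because the read length and the counting of reads that match several genes were not given in the sources used here.

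Genes at a high level were found among models with a long tail past the stem-loop, with a short one and with no stem-loop found. Of the 20 members whose GENCODE model runs 100 or more bases past the stem-loop, 7 were above 10 CPM per coding kilobase (Hist1h1c, Hist3h2a, Hist1h4i, Hist3h2ba, Hist1h2ac, Hist1h1d and Hist4h4), and the median of the 20 was 4.96, with Hist1h1t at 0.148 the lowest. Of the 14 whose model ends within 100 bases of it, 1 was above 10, Hist1h2ag at 105, and the median was 2.14. The other 19 with a coding length have no stem-loop in the model, which includes models cut at the stop codon. Of these, 3 were above 10: Hist1h2bc, Hist2h2be and Hist1h2ak. No stem-loop does not mean a short model: those of Hist1h2bc and Hist2h2be have 1156 and 2620 bases, 381 of them coding. The model of Hist1h2ak has 393 bases, all coding. The median of those 19 was 1.78. These are 3 sets of gene models and not replicates, models are longer where longer mRNAs have been seen, and the part of the tail in the level was not tested.

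**Figure D2:**
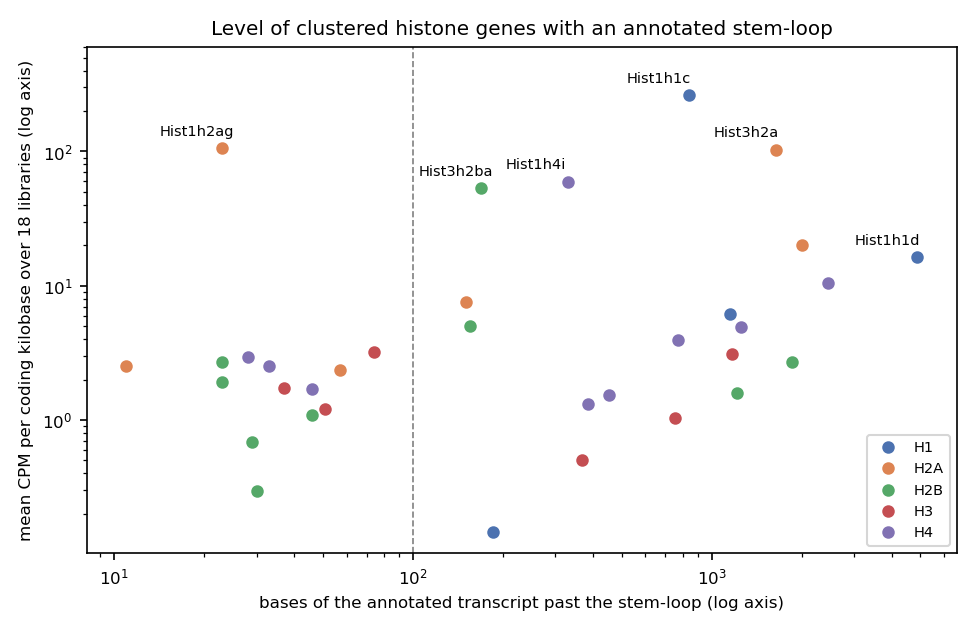
Mean level over the 18 libraries, as CPM per coding kilobase (log axis), against the number of annotated bases past the stem-loop (log axis), for the 34 clustered histone genes with a stem-loop in their GENCODE model, coloured by class. The dashed line is at 100 bases, and Hist1h2ag stands at 105 CPM per coding kilobase to its left.

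Levels by library follow for the second gene of H1, H2A, H2B and H4 and for the first 2 of H3, and those of Hist1h1c, Hist1h2bc, Hist1h2ag and Hist1h4i stand with the comparisons. Hist2h2be, an H2B gene, was at 25.4, 60.7 and 62.9 CPM in WT/WT, 26.8, 53.2 and 50.2 in WT/D45, and 34.4, 68.9 and 79.3 in D45/D45. The 5 WT/KO libraries had 23.2, 13.0, 9.44, 63.2 and 49.0 CPM and the 4 of D45/KO 38.3, 28.2, 39.1 and 54.6. In each genotype the lowest library was one with B cell transcripts, and the ranges of all genotypes overlapped. Hist3h2a, the H2A gene of the small Hist3 cluster, was at 18.6, 76.7 and 47.3 CPM in WT/D45, 15.7, 14.6, 9.44, 53.5 and 41.1 in WT/KO, and 27.9, 61.3, 18.1 and 43.2 in D45/KO. Here D45/KO replicate 2, which has B cell transcripts, was the highest of its genotype. Among H4 genes Hist4h4 was at 18.4 CPM in WT/WT replicate 2, beside 0.423 and 0.4661 CPM in the other WT/WT libraries, and at 1.91 to 2.32 CPM in the 4 libraries of D45/KO. That WT/WT library also had the fewest members detected. Hist1h1d, a minor H1 gene, was at 2.30, 16.3 and 18.9 CPM in WT/WT and at 5.23, 7.04, 2.61 and 8.68 in D45/KO, which lie within the WT/WT range. The H3 genes Hist1h3c and Hist2h3c1 were at 0 to 3.50 and 0 to 4.48 CPM over all libraries, with WT/KO replicate 3 at 0 for both.

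The summed level of the clustered histone genes varied more between libraries of a genotype than between genotypes. With TMM-adjusted sizes the sum was 195, 834 and 837 CPM in the 3 WT/WT libraries, 249, 788 and 515 in WT/D45, and 294, 668 and 992 in D45/D45. The 5 WT/KO libraries summed to 171.5, 161, 162.6, 602 and 391 CPM, and the 4 of D45/KO to 271, 387, 245 and 495. The low values belong to the libraries with B cell transcripts, which ranged from 161 to 387 CPM. The other 9 ranged from 391 to 992, so the 2 sets did not overlap. This split was not particular to the clustered histone genes. A list of mitosis genes had a mean log2 CPM of 6.674 to 8.537 in the former and 8.613 to 9.303 in the latter. The erythroid markers were at 10.1 to 11.7 and 12.1 to 13.1. Lists of DNA replication, histone chaperone and histone mRNA processing genes overlapped. The TMM factors were 1.09 to 1.93 in the former and 0.366 to 0.954 in the latter. WT/WT averaged 622 ± 370 CPM (SD, n = 3), WT/D45 517 ± 269 (n = 3), D45/D45 651 ± 349 (n = 3), WT/KO 298 ± 196 (n = 5) and D45/KO 349 ± 115 (n = 4), and each genotype's range overlapped that of every other.

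The scaling sets much of that spread. As CPM on plain library totals, without TMM, the 54 genes summed to 258 to 504 in the libraries with B cell transcripts and to 306 to 565 in the rest, which overlap. On this plain scale WT/KO was at 297 ± 33.1 (SD, n = 5), WT/WT at 391 ± 104 (n = 3), D45/KO at 411 ± 105 (n = 4), WT/D45 at 460 ± 12.7 (n = 3) and D45/D45 at 488 ± 67.9 (n = 3). The 5 WT/KO libraries, at 258 to 332, then lay below the 3 of WT/D45 (445 to 468) and the 3 of D45/D45 (437 to 565), and overlapped WT/WT (306 to 507) and D45/KO (267.9 to 504). No test was run on these sums.

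**Figure D3:**
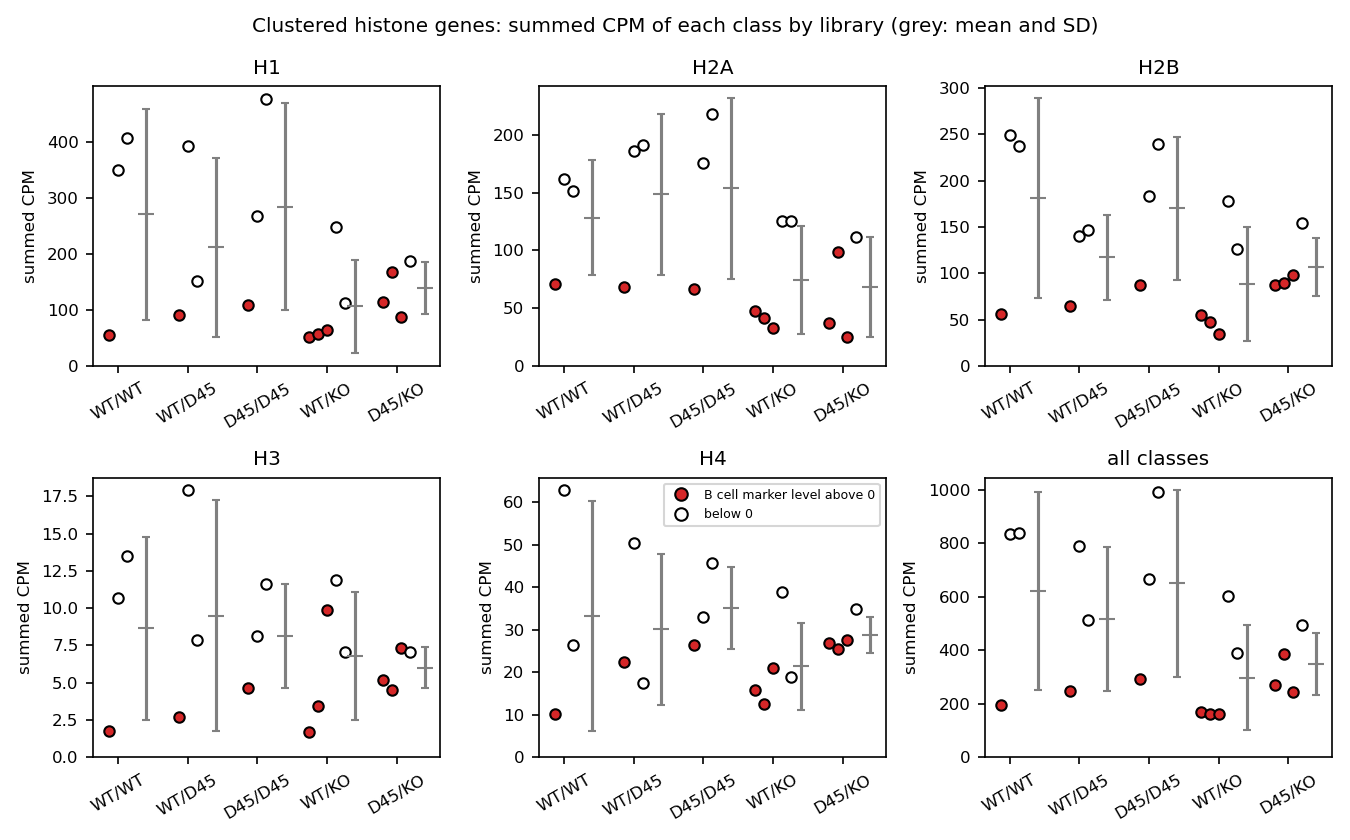
Summed CPM (TMM-adjusted) of the clustered histone genes of each class and of all classes, by genotype, with 1 point for each library and the mean and SD in grey. Red points are the 9 libraries with a mean log2 CPM of the B cell markers above 0; for all classes together they lie between 161 and 387 CPM and the white points between 391 and 992.

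By class, H1 gave 28.5% to 49.9% of the clustered histone counts of a library, H2B 17.8% to 40.0%, H2A 10.3% to 37.1%, H4 3.18% to 13.0% and H3 0.904% to 6.09%. H1 summed to 51.5 to 168.5 CPM in the 9 libraries with B cell transcripts and to 113 to 477 in the other 9. H2A and H2B summed to 25.2 to 98.9 and 34.9 to 97.8 CPM in the former, below the 112 to 218 and 126 to 249 of the latter. H4 overlapped, with 10.2 to 27.7 (median 22.4) against 17.6 to 63.0 CPM (median 34.9). On plain library totals H2A and H2B overlapped too, with 27.6 to 130.5 against 55.4 to 165.4 CPM and 56.8 to 137.4 against 83.0 to 151.5 CPM. The H4 medians then stood the other way round, at 33.2 CPM in libraries with B cell transcripts and 21.7 in the others. As a share of the clustered histone counts, H4 took 5.23% to 13.0% in libraries with B cell transcripts and 3.18% to 7.56% in the others. The largest H3 share, 6.09%, and the smallest depth, 9.36 M, were both in WT/KO replicate 3. The part of B cells in these class differences was not tested.

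D45/KO against WT/KO compares D45 with the wild-type allele where the partner allele is null. With edgeR's quasi-likelihood test over all 18 libraries, 0 of 51 clustered histone genes passed a Benjamini-Hochberg adjusted p of 0.05, while 0.172% of the 13405 genes did. At an unadjusted p under 0.05 there were also 0 with edgeR (5.41% of all genes), 0 with DESeq2 and 2 with limma-voom, and neither other tool called any. Here and in every comparison below, the share of all genes is that of edgeR alone. Shares for DESeq2 and limma-voom are not given, so their counts of members cannot be set against it. The median log2 fold change of the 51 was -0.24, beside -0.15 for all genes tested. The class medians were -0.58 (H1), -0.56 (H2A), 0.12 (H2B), -0.23 (H3) and 0.16 (H4), and 10 of the 11 H2A genes had an estimate below 0, Hist3h2a (0.49) being the other. Of all genes tested, 40.8% had an estimate above 0. H2A genes share sequence, so the 10 are not separate observations. Hist1h4i had the smallest p among estimates above 0: it was at 19.9, 14.3, 19.1 and 24.2 CPM in D45/KO and at 13.1, 8.95, 7.34, 23.2 and 5.79 CPM in WT/KO. Its log2 fold change was 0.73 ± 0.47 (SE, edgeR adjusted p = 0.927), and the groups overlapped because WT/KO replicate 4 lay within the D45/KO range. Hist1h3b had the smallest p among those below 0, at -2.85 ± 1.89 (adjusted p = 0.927). Its WT/KO mean came from replicate 3 at 3.28 CPM, with the other 4 between 0 and 0.217 CPM, and without that library the log2 fold change was 0.05.

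D45/KO against WT/WT sets the anaemic compound heterozygotes beside mice with no altered allele. Of the 51 genes, 0 were called, against 0.619% of all genes tested. An unadjusted p under 0.05 was reached by 2 with edgeR (8.93% of all genes), 5 with DESeq2 and 3 with limma-voom, with 0 called by either of those tools. The median log2 fold change was -0.01, beside 0.07 for all genes. Hist1h2ak, an H2A gene, had the smallest p among estimates below 0, with 7.83, 22.4 and 11.8 CPM in WT/WT and 1.45, 4.17, 0.174 and 8.88 CPM in D45/KO. The log2 fold change was -1.92 ± 0.86 (SE, adjusted p = 0.515), and D45/KO replicate 4 lay within the WT/WT range. Hist1h1c was at 50.2, 331 and 371 CPM in WT/WT and at 103, 155, 76.6 and 170 CPM in D45/KO, a log2 fold change of -0.99 ± 0.74 (adjusted p = 0.840). Hist1h2bc was at 16.2, 149 and 134 CPM in WT/WT and at 28.1, 31.9, 32.6 and 57.7 CPM in D45/KO (-1.40 ± 0.68, edgeR adjusted p = 0.576). For both, WT/WT replicate 1, the WT/WT library with B cell transcripts, was below every D45/KO library. Groups that did not overlap were found for 2 of 51 members (3.92%), Hist1h4k and Hist1h4b, both higher in D45/KO and both named after their values were seen, against 10.2% of all genes.

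D45/D45 against WT/WT asks what 2 copies of the missense allele do. Here 0 of 51 were called, as were 0% of all genes tested, with 3 under an unadjusted p of 0.05 by edgeR (4.07% of all genes), 3 by DESeq2 and 1 by limma-voom. DESeq2 and limma-voom called 0 members. The median of the members was 0.30, beside 0.01 for all genes, and 34 of 51 estimates were above 0, as were 50.8% of those of all genes. Hist1h1c was at 101, 243 and 439 CPM in D45/D45, and WT/WT replicate 1 (50.2 CPM) lay below all 3 of these while the other WT/WT libraries lay within their range. Its log2 fold change was 0.06 ± 0.80 (SE, adjusted p = 1). Hist3h2a was at 21.8, 63.1 and 104 CPM in D45/D45 and at 15.7, 44.3 and 50.6 CPM in WT/WT (0.77 ± 0.71, adjusted p = 1). Hist1h2bh, an H2B gene under 3 CPM in every library, had the smallest p among estimates below 0 (-2.06 ± 1.41, adjusted p = 1). The groups of 4 members did not overlap (7.84%, against 11% of all genes).

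Hist1h3e, an H3 gene, had the smallest p among estimates above 0 in each of the 4 comparisons with WT/WT, and these comparisons share the 3 WT/WT libraries. It had 0 counts in all 3 of them, 36 counts over the WT/D45 libraries, 14 over D45/D45, 45 over WT/KO and 28 over D45/KO. Against a limit of 3 counts over the WT/WT group (0.0471 CPM), the observed pooled level was 5.49-fold higher in WT/D45 and 3.22-fold in D45/D45. It was 4.46-fold higher in WT/KO and 3.83-fold in D45/KO. The limit covers counting error in WT/WT only. Counts of the other group enter as observed, so these ratios are no lower bounds. The adjusted p-values were 1, 1, 0.818 and 0.467 with edgeR. In WT/KO replicates 3 and 4 and in D45/KO replicate 3 it was also at 0, and it did not exceed 0.827 CPM in any library. Hist1h3h and Hist1h2bl likewise had 0 counts in WT/WT and were under 3 CPM everywhere. Fitted fold changes of these 3 genes depend on the prior count. Both these and the ratios to the limit lie above the medians of the 51 genes. Using the ratios could therefore not change those medians, and is no check of them. Those medians moved with WT/WT replicate 3: without it they were 1.30 for D45/KO, 1.12 for D45/D45, 1.35 for WT/KO and 1.10 for WT/D45, on the log2 scale.

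WT/KO against WT/WT asks what the loss of a single Klf1 allele does. Of the 51 genes 0 were called, as were 0% of all genes tested, and 5 had an unadjusted p under 0.05 with edgeR (4.27% of all genes), 7 with DESeq2 and 2 with limma-voom, neither of which called a member. The median was 0.33, beside 0.26 for all genes. Hist1h2bc, among the 5, was at 19.5, 18.3, 9.31, 78.1 and 34.2 CPM in WT/KO, with a log2 fold change of -1.64 ± 0.64 (SE, edgeR adjusted p = 0.818). Hist1h1c, also among the 5, was at 47.6, 47.2, 22.5, 211 and 99.4 CPM in WT/KO (-1.55 ± 0.70, edgeR adjusted p = 0.818). WT/WT replicate 1, at 16.2 and 50.2 CPM, lay within the WT/KO range for both. In this comparison 5 of the 8 neutrophil markers tested also had an unadjusted p under 0.05 with edgeR, with a median log2 fold change of -3.16 and 0 called, and their part in the histone values was not tested. Among libraries without B cell transcripts Hist1h2bc was at 149 and 134 CPM in WT/WT and at 78.1 and 34.2 CPM in WT/KO. In the authors' deposited table, which holds 12 of the members and gives WT/WT over WT/KO, the log2 fold changes were 1.69 for Hist1h2bc and 1.82 for Hist1h1c, and the adjusted p-values of the 12 were 0.853 to 0.939.

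WT/D45 against WT/WT differs in a single missense allele. Again 0 of 51 members and 0% of all genes were called, with 4 members at an unadjusted p under 0.05 by edgeR (1.45% of all genes), 6 by DESeq2 and 1 by limma-voom, and 0 called by those 2 tools. The median was 0.27, beside 0.10 for all genes. Hist1h2ag was at 34.9, 69.0 and 98.6 CPM in WT/D45 and at 39.8, 75.0 and 61.4 CPM in WT/WT, a log2 fold change of 0.20 ± 1.12 (SE, adjusted p = 1). Hist1h3a, an H3 gene, had the smallest p among estimates below 0 (-3.50 ± 2.05, adjusted p = 1), and its WT/WT mean came from replicate 2 at 6.18 CPM, beside 0.141 and 0.4661 CPM. Groups did not overlap for 3 members (5.88%, against 4.04% of all genes), all higher in WT/D45 and under 2 CPM in its libraries.

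D45/KO against D45/D45 replaces a missense allele with the null. Of the members 0 were called and of all genes tested 0.00746%, and 1 member had an unadjusted p under 0.05 with edgeR (2.26% of all genes), 1 with DESeq2 and 2 with limma-voom, again with 0 called by those 2. Estimates lay mostly below 0, in 36 of 51, with a median of -0.41 beside 0.06 for all genes, of which 54.1% had an estimate above 0. The 1 member was Hist1h2ak, at 5.95, 19.3 and 18.5 CPM in D45/D45 (-1.98 ± 0.86 SE, edgeR adjusted p = 1). Hist1h2ag was at 30.7, 67.8 and 69.8 CPM in D45/D45 and its estimate was -1.74 ± 1.05 (adjusted p = 1). Hist1h4c, an H4 gene under 2 CPM in all libraries, had the smallest p among estimates above 0 (1.56 ± 1.44, adjusted p = 1). One H3 gene, Hist2h3c1, did not overlap (1.96% of members, against 4.77% of all genes), with 2.0 to 2.25 CPM in D45/D45 and 0.980 to 1.91 CPM in D45/KO. In this comparison 7 of the 8 macrophage markers tested also had an unadjusted p under 0.05, with a median log2 fold change of 2.63 and 0 called, and their part in the histone values was not tested.

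The test for any difference among the 5 genotypes called 0 members and 0.336% of all genes, and 0 members had an unadjusted p under 0.05 with edgeR (4.8% of all genes), 3 with DESeq2 and 1 with limma-voom. The interaction, which asks whether the difference between D45 and WT alleles depends on the partner allele, called 0 members and 0.00746% of all genes, with 3 members at an unadjusted p under 0.05 by edgeR (2.45% of all genes), 5 by DESeq2 and 0 by limma-voom. Those 3 were Hist1h3e, Hist1h3h and Hist1h2bl, the genes with 0 counts in WT/WT. Hist1h2bc had the smallest p above 0 there, with an estimate of 1.47 ± 0.95 (SE, adjusted p = 1). DESeq2 and limma-voom called 0 members in both tests.

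**Figure D4:**
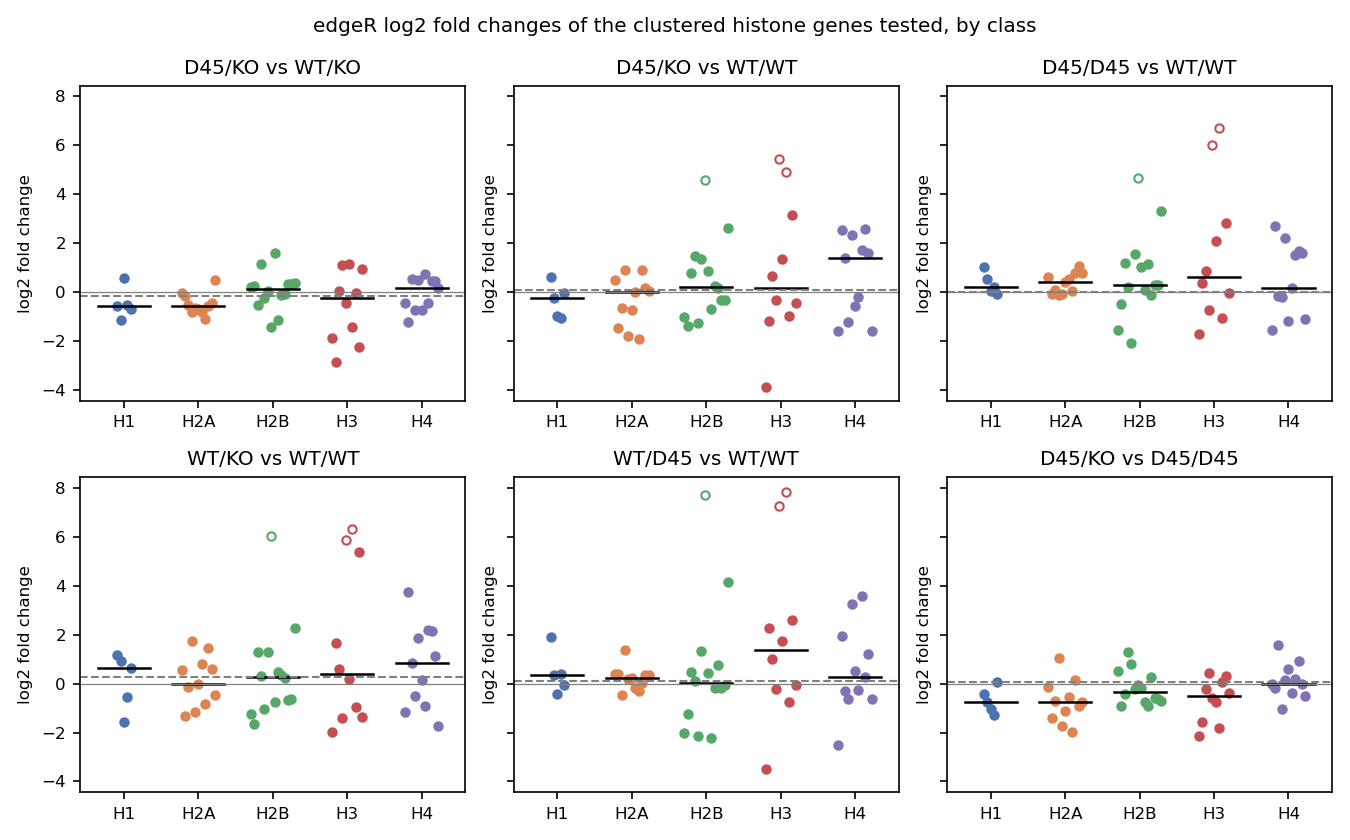
edgeR log2 fold change of each tested clustered histone gene (points, by class) in the 6 pairwise comparisons, with the class median as a black bar and the median of all 13405 genes as a dashed line. Open points are the 3 genes with 0 counts in WT/WT, whose fitted values are no bound; 0 of the points passed an adjusted p of 0.05.

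Replicates of D45/KO differed widely in the H2A gene Hist1h2ag, which had 11 counts (0.171 CPM) in replicate 1 and 21 counts (1.83 CPM) in replicate 3, but 1022 counts (22.8 CPM) in replicate 2 and 1464 counts (42.2 CPM) in replicate 4. In the other 14 libraries it was at 3.93 to 98.6 CPM, and the lowest of these, 60 counts, was in WT/KO replicate 3. The pattern was singled out after its values were seen, so that it is given as a description. Its share of all H2A counts does not depend on the scaling: it was 0.464% (95% exact binomial interval 0.232% to 0.828%) and 7.24% (4.54% to 10.9%) in D45/KO replicates 1 and 3, against 12.1% to 56.1% in the other 16 libraries. Intervals cover counting error only.

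A pair of further H2A genes was low in the same libraries. Hist1h2ak was at 1.45 and 0.174 CPM in D45/KO replicates 1 and 3 and at 3.87 to 22.4 CPM in the other 16. Hist1h2ah was at 0.296 and 0.174 CPM, and at 0.214 to 4.51 CPM elsewhere, so that it overlapped through WT/D45 replicate 2. Hist3h2a was at 27.9 and 18.1 CPM in these 2 libraries, within its range of 9.44 to 104 CPM in the other 16. The H2A genes without those 3, mostly Hist3h2a, summed to 35.0 and 23.0 CPM, within the 19.3 to 128 CPM of the other 16. Hist1h2ae was at 2.01 CPM in D45/KO replicate 1, but in replicate 3 at 0.435 CPM, below the 0.832 to 6.54 CPM of the other libraries. Set against Hist2h2be, an H2B gene with no shared window, there were 0.00446 and 0.0468 counts of Hist1h2ag for each count of Hist2h2be in these libraries and 0.417 to 1.97 in the others. Hist1h4i, whose start lies between those of Hist1h2ag and Hist1h2ah on chromosome 13, was at 19.9 and 19.1 CPM in the same 2 libraries. The windows of 50 bases that Hist1h2ag shares with other genes include 31.4% of its windows in common with Hist1h2ak and 61.2% with Hist1h2ah, so reads of the 3 may not be fully separate.

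**Figure D5:**
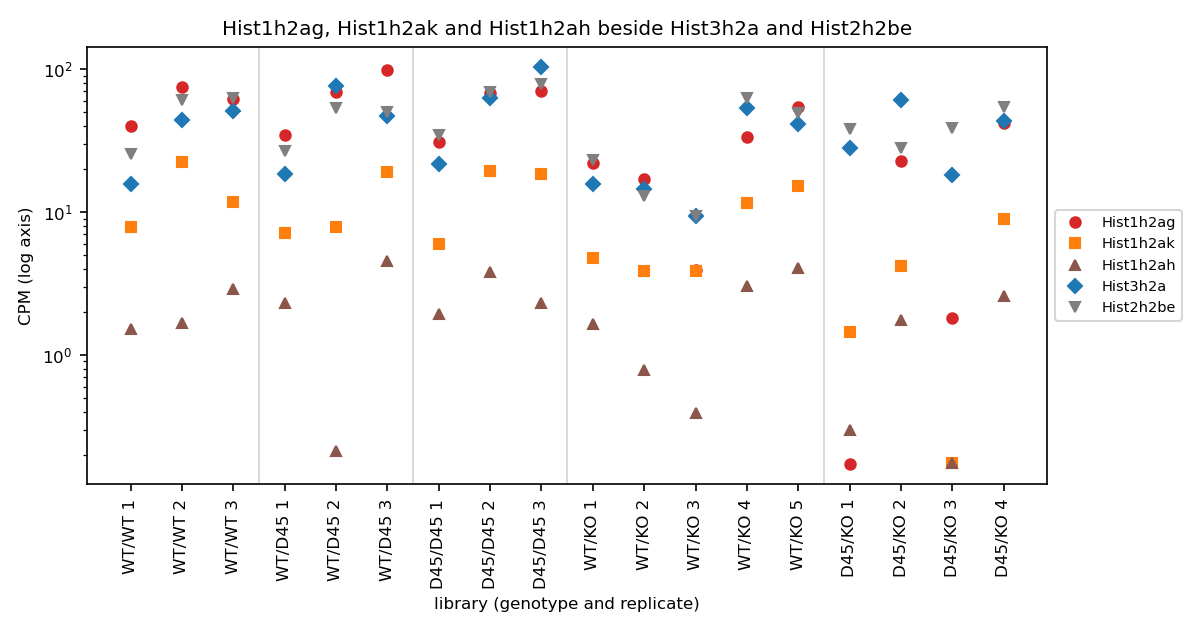
CPM (log axis, TMM-adjusted) of the H2A genes Hist1h2ag, Hist1h2ak, Hist1h2ah and Hist3h2a and of the H2B gene Hist2h2be in each of the 18 libraries. In D45/KO replicates 1 and 3 Hist1h2ag is at 0.171 and 1.83 CPM while Hist3h2a (27.9 and 18.1) and Hist2h2be (38.3 and 39.1) lie among the values of other libraries.

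Both libraries come from mice numbered under 200, and nothing in the labels names that number as a batch. When edgeR was run on the 7 libraries of such mice alone, with 2 residual degrees of freedom for 5 genotypes, D45/KO replicates 1 and 3 were the whole D45/KO group, beside 2 WT/KO libraries and 1 of each other genotype. The fit assumes that those lone libraries vary as the others do, and for Hist1h2ag it restates the values that singled the gene out and is no separate evidence. The log2 fold change of Hist1h2ag there was -4.04 against WT/KO, -5.74 against WT/WT and -5.31 against D45/D45. The fit called 4 members in D45/KO against WT/KO: Hist1h2ag, Hist1h2ak (-2.23), Hist1h1c (1.38) and Hist2h2be (1.25), where it also called 18.4% of the 13952 genes it tested, 53 members among them. It called 2 members, Hist1h2ag and Hist1h2ak, and 4.35% of all genes in D45/KO against WT/WT, and 1 member and 0.638% of all genes in D45/KO against D45/D45. The test for any difference called 2 members, Hist1h2ag and Hist1h1c, and 10.5% of all genes, and the interaction 1 member and 3.07%. In the 11 libraries of mice numbered 200 or over, 0 members were called in any comparison, and 0 to 4 had an unadjusted p under 0.05. The share of all genes called in that fit is not given here, so the 0 cannot be read as particular to the members.

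Genes that work with the clustered histones were taken from fixed lists, and 0 of them were called in any of the 8 comparisons by edgeR. In D45/KO against WT/WT, 1 of the 8 comparisons, 8.93% of all genes tested had an unadjusted p under 0.05 with edgeR. That level was reached by 1 of 22 genes of histone mRNA processing and transcription and by 1 of 20 histone chaperones. It was also reached by 3 of 11 replacement histone genes, 0 of 20 DNA replication genes and 0 of 15 mitosis genes. Slbp, which encodes the stem-loop binding protein, was at 396 ± 147 CPM (SD, n = 3) in WT/WT and 291.1 ± 77.2 (n = 4) in D45/KO. Npat, whose protein activates histone transcription, was at 39.0 ± 1.53 CPM (n = 3) in WT/WT and 47.3 ± 8.96 (n = 4) in D45/KO. H3f3a, a replacement H3 gene transcribed outside S phase, was at 611, 1619 and 2618 CPM in WT/WT and at 264, 435, 466 and 656 CPM in D45/KO, a log2 fold change of -1.83 ± 0.64 (SE, adjusted p = 0.334). H3f3b, which encodes the same protein, was at 618 ± 108 CPM (SD, n = 3) and 506 ± 122 (n = 4). H1f0, the H1 gene of resting and differentiated cells, averaged 10.3 ± 6.86 CPM (n = 4) for D45/KO against 4.83 ± 1.74 (n = 5) for WT/KO, which is 1.10 ± 0.49 on the log2 scale (SE, edgeR adjusted p = 0.856). H2afz was at 289 ± 24.4 and H2afx at 634 ± 279 CPM (n = 3) in WT/WT, and at 353 ± 96.6 and 410 ± 123 CPM (n = 4) in D45/KO. Klf1 itself was at 415 ± 311 CPM (n = 5) in WT/KO and 821 ± 322 (n = 3) in WT/WT (log2 fold change -0.99 ± 0.56 SE, edgeR adjusted p = 0.818). The groups overlapped, with 230, 158, 191, 659.5 and 834 CPM in WT/KO and 452, 1047 and 964 in WT/WT. In both, the libraries with B cell transcripts were the lowest, and their part in the difference was not tested. It is thus a limited check of the labels, also since the extent of the KO allele is not known. Of the marker lists, Lck, a T cell kinase gene, was the 1 called gene, lower in D45/KO than in WT/WT (-1.43 ± 0.31, edgeR adjusted p = 0.0454). Most of its list went the other way there. Of the 8 T and NK cell markers tested, 5 had an estimate above 0, and their median log2 fold change was 0.53.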

How the data were processed

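The deposited table holds raw counts per gene symbol, and the mm9 build, HISAT2, featureCounts and limma are listed, with no version or role, in the submitters' processing notes. The strand setting of the counting was not given in the sources used here. A second table deposited by the authors gives CPM values, a log2 fold change of WT/WT over WT/KO, an average log2 expression, and p-values with adjusted p-values. From the counts, edgeR 4.0.16 in R 4.3.3 was run with TMM scaling and filterByExpr by genotype on all 18 libraries, without robust estimation, and a gene was called where its Benjamini-Hochberg adjusted p was under 0.05, over 13405 genes, in each of 8 comparisons. CPM used TMM-adjusted sizes, and 1 count stood for 0.00944 to 0.117 CPM, depending on the library. The SE of a log2 fold change is its size divided by the square root of F, and is approximate. DESeq2 1.42.0, limma-voom (limma 3.58.1) and the other alternatives are in the closing section.

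Members and lists were chosen with earlier results of these data known. Named members are the 2 of each class with the highest mean CPM, the 2 with the highest CPM per coding kilobase, and the smallest p in each direction of a comparison. Identical proteins could not be grouped for want of protein sequences. Sequences are from GENCODE M21 and RefSeq, on GRCm38 and not mm9, so coordinates are those of the later build. Where a group had no count, 3 counts over the whole group gave the limit for that group.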

Additional observations from a re-analysis of the deposited data

Results flagged for a closer look

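In groups of 4 or 5 libraries, a library far from the others of its group was looked for in 42 groups of values, and 4 were found. Chance flags about 1 in 20 groups. In D45/KO, Hist1h2bc was at 57.7 CPM in replicate 4 and at 28.1 to 32.6 CPM in the other 3, and the H2B total was at 154 CPM in the same library and at 87.4 to 97.8 CPM in the others. Replicate 4 is the D45/KO library without B cell transcripts. In WT/KO, Hist4h4 was at 5.02 CPM in replicate 5 and at 0.775 to 1.31 CPM in the other 4. Hist1h3b was at 3.28 CPM in WT/KO replicate 3 and at 0 to 0.217 CPM in the other 4.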

How the results depend on the processing

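The count of called clustered histone genes was 0 in each comparison a setting was run on, under every setting but 1. The main fit called 0% to 0.619% of all genes in a comparison, so a count of 0 cannot be read as particular to the members. Shares of all genes called under the settings with a count of 0 are not given here. All 8 comparisons were run with other size factors (RLE), no filter on low counts, the count rule of the members as the filter, robust estimation, DESeq2, limma-voom, the identifier or the B cell marker level as a term, and the libraries with an identifier of 200 or over, 7 with the compared genotypes alone, and 3 to 6, those that use its genotype, on leaving out each library in turn (range 0 to 0). The count of called members was also 0 in 5 comparisons without D45/KO replicates 1 and 3 together, an alternative chosen after seeing the data. The exception was the 7 libraries with an identifier under 200, where 4 members were called in D45/KO against WT/KO, 2 in D45/KO against WT/WT, 1 in D45/KO against D45/D45, 2 in the test for any difference and 1 in the interaction. With the replicate number as a block the count of calls was 0 in each comparison, and 0 to 8 members had an unadjusted p under 0.05. The numbers did not pair the libraries throughout. Deviations of libraries with number 1, which all have B cell transcripts, went together, with correlations of 0.309 to 0.772. The 1 pair with number 4 was at 0.626. Those with number 2 were at -0.459 to 0.631 and those with number 3 at -0.395 to 0.369. Libraries of different genotype and unlike number were at -0.731 to 0.786.

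The median log2 fold change of the members moved with single libraries. In D45/KO against WT/WT it ran from -0.33 without WT/WT replicate 1 to 1.30 without WT/WT replicate 3, in WT/KO against WT/WT from -0.35 with the replicate block to 1.35 without WT/WT replicate 3, and in WT/D45 against WT/WT from -0.16 without WT/D45 replicate 2 to 1.10 without WT/WT replicate 3. In D45/KO against WT/KO it ran from -0.44 to 0.60, the latter with limma-voom, and in D45/KO against D45/D45 it was 0.48 with identifiers under 200. The cause was not tested. A mean under 1 CPM, where 1 count can be 0.117 CPM, was found for 29 of the 54 members, and depth limits what these can show to large differences.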
